A study of Mus musculus with 12 samples.

Results

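Marker genes of brain regions that border the hypothalamus, 7 in number, were followed across the hypothalamus arrays of Asmt-knockout and wild-type mice, to see how their signal varied between arrays. The members are a list of gene symbols, and the rule that picks them uses no measured value, although the list was drawn up with earlier results of these data known. They are 3 cortical markers (Neurod6, Tbr1 and Emx1) and 4 thalamic markers (Tcf7l2, Lef1, Prkcd and Gbx2), which makes 7 of the 27308 gene symbols named on the array. Asmt encodes the enzyme of the last step of melatonin synthesis. The wild-type control group (WT) and the Asmt-knockout control group (KO) did not swim, whereas the wild-type exercise group (called exercised WT below) and the Asmt-knockout exercise group (KE) were trained by daily swimming, and each group had 3 arrays. All mice were C57BL/6, and the labels give an age of 6 to 7 weeks, which the study's methods state as the age when training began, so the mice were older when tissue was taken. The study's methods describe homozygous knockout males, made by Cas9 editing of zygotes and then backcrossed, and their wild-type littermates. Whether 1 array held the RNA of 1 mouse or of pooled mice was not given in the sources used here, so p-values measure the spread between these samples.

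The hypothalamus lies below the thalamus and behind the basal forebrain, and a dissected block can include parts of these neighbours. Emx1, Tbr1 and Neurod6 are transcription factors of excitatory neurons of the cerebral cortex, and Emx1 marks the dorsal telencephalon from which that cortex forms. Gbx2 is a homeobox factor that patterns the developing thalamus and is also known from forebrain cholinergic neurons. Tcf7l2 and Lef1 are DNA-binding effectors of WNT signalling that mark thalamic neurons, and Prkcd encodes the delta isoform of protein kinase C, which is abundant in the thalamus. Outside the thalamus, Tcf7l2 is also made by oligodendrocytes and Lef1 by brain endothelium.

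The values are brightness of 60-base probes, so the probes are shown first, from the array's own annotation on mouse build mm9. The 15 member probes comprised 1 each for Emx1, Gbx2 and Neurod6, 2 for Tbr1, 3 each for Lef1 and Prkcd, and 4 for Tcf7l2. The leading probe of a gene was the tested probe with the highest mean. The leading Tbr1 probe was at chr2:61652093-61652152 on the plus strand, the Gbx2 probe at chr1:91825013-91825072 on the minus strand and the Neurod6 probe at chr6:55628006-55628065 on the minus strand. The Emx1 probe was at chr6:85154062-85154121 on the plus strand. The leading probes of Tcf7l2 and Lef1 were at chr19:56007586-56007645 and chr3:130926200-130926259, both on the plus strand, and that of Prkcd was at chr14:31409035-31409094 on the minus strand. Each of these 7 was designed on the messenger RNA of its gene and is therefore exonic. Which of them are coding was not determined here. The first 30 bases, 5′ to 3′, are given for the 3 genes with the widest spread and for Emx1, which was not detected. They are also given for the leading Lef1 probe, whose signal ran against that of Tbr1 on part of the arrays, as given below. All 60 bases are given for the second Prkcd probe, because its position spans 588 bases and it therefore crosses an exon junction, at chr14:31414383-31414970 on the minus strand.
Tbr1: ccactgagaatcgttttgttttctgctcgt
Gbx2: gagagtatattcattagacgggcttaaagg
Neurod6: agggacaaaaataagtgtattcagttggta
Emx1: aatgactaggggaacaatcaagagcccaca
Lef1: actgcaagcgccgacttccaaaaagaaagc
Prkcd: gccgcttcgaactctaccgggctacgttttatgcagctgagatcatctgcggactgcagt

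The levels are quantile-normalized log2 signals, in which 1 unit is a 2-fold difference of signal. A probe counted as detected on an array when the scanner software called its spot well above background. Emx1 was detected on 0 of 12 arrays. Neurod6 and Gbx2 were each detected on 10 arrays, and the leading probes of Tbr1, Tcf7l2, Lef1 and Prkcd on all 12. A probe was tested when it was detected on all 3 arrays of at least 1 group, which kept 35229 of the 56605 probes of the array and 11 of the 15 member probes, from 6 of the 7 genes. The 4 untested ones were the Emx1 probe, the second Tbr1 probe and 2 Lef1 probes for other transcripts, each detected on 0 arrays. The 3 cortical markers were thus not detected together on any array.

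The arrays lay on 2 slides, and this touches most group comparisons. Slide 1 held WT replicates 1 to 3 with KO replicates 1 and 2. Slide 2 held KO replicate 3 and all exercised WT and KE arrays. KO versus WT could be compared within slide 1, KE versus KO only through KO replicate 3, and exercised WT and WT shared no slide. The first principal component of the tested probes took 47.3% of the variance and separated the slides. Between 59.8% and 66.4% of probes were detected per array, and no spot was saturated. Exercised WT replicate 3 stood apart in its tissue markers, as given below. With 3 arrays per group their number limits all precision, and in bulk tissue fewer cells of a type and less RNA per cell cannot be told apart.

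For each of the 6 tested genes, the arrays of at least 1 group spanned more than the 4 group means did. Means of 3 arrays vary less than single arrays, so this is a description only. It did not hold in every group: the Tcf7l2 means spanned 0.41 units, against 0.29 within WT and 0.21 within KO. Tbr1 read 9.16, 9.16 and 10.60 in WT replicates 1 to 3, and 8.58, 10.34 and 9.27 in KO replicates 1 to 3. It read 9.68, 10.18 and 10.85 in exercised WT replicates 1 to 3, and 10.07, 9.74 and 10.67 in KE replicates 1 to 3. The lowest array was KO replicate 1 and the highest was exercised WT replicate 3, which differed by 2.26 log2 units or 4.80-fold. All 4 groups overlapped, and within KO alone the arrays spanned 1.76 units. The group means were 9.64 ± 0.83 in WT, 9.40 ± 0.89 in KO, 10.23 ± 0.59 in exercised WT mice and 10.16 ± 0.47 in KE (SD, n = 3 each).

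Gbx2 had the widest range of the members. Its signal was 4.36, 4.56 and 6.63 in WT, 3.72, 6.07 and 5.32 in KO, 4.74, 6.58 and 7.26 in exercised WT, and 4.66, 6.10 and 6.45 in KE, in the order of replicates 1 to 3. KO replicate 1 was again lowest and exercised WT replicate 3 highest, 3.54 units or 11.6-fold apart. The spots of KO replicate 1 and WT replicate 2 were not well above background, so these values bound the level from above. Over the 10 arrays that detected Gbx2 the range was 2.90 units. Group means were 5.18 ± 1.25 in WT, 5.04 ± 1.20 in KO, 6.19 ± 1.30 in exercised WT mice and 5.74 ± 0.95 in KE (SD, n = 3 each), and all groups overlapped.

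Neurod6 also varied widely, but on other arrays. Its signal was 4.46, 5.76 and 4.92 in WT, 5.13, 3.48 and 5.15 in KO, 5.23, 5.17 and 5.10 in exercised WT, and 4.04, 5.07 and 4.82 in KE, in the order of replicates 1 to 3. The lowest arrays, KO replicate 2 and KE replicate 1, were those on which it was not well above background, and WT replicate 2 was highest. The range was 2.27 units over 12 arrays and 1.29 over the 10 that detected it. The exercised WT arrays lay within 0.13 units of each other, and KE lay just below exercised WT without overlap.

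The remaining members were steadier. The leading Prkcd probe read 8.64, 8.81 and 9.01 in WT, 8.37, 9.004 and 8.58 in KO, 8.49, 8.78 and 9.18 in exercised WT, and 8.69, 8.83 and 8.78 in KE. KO replicate 1 was lowest and exercised WT replicate 3 highest, as for Tbr1 and Gbx2, but the distance was 0.81 units. The leading Tcf7l2 probe read 10.48, 10.59 and 10.77 in WT, 10.45, 10.60 and 10.66 in KO, 10.67, 10.86 and 11.40 in exercised WT, and 10.51, 11.16 and 10.93 in KE. The same pair of arrays marked its ends, 0.96 units apart. Lef1 read 9.16, 9.40 and 9.16 in WT, 9.36, 8.95 and 9.79 in KO, 9.73, 9.43 and 9.16 in exercised WT, and 9.58, 9.61 and 9.32 in KE. It was lowest on KO replicate 2 and highest on KO replicate 3, 0.84 units apart, so its order over the arrays was another one. Exercised WT replicate 3, the top array of 4 members, held one of the lower Lef1 values. For all 3 genes the groups overlapped.

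**Figure D1:**
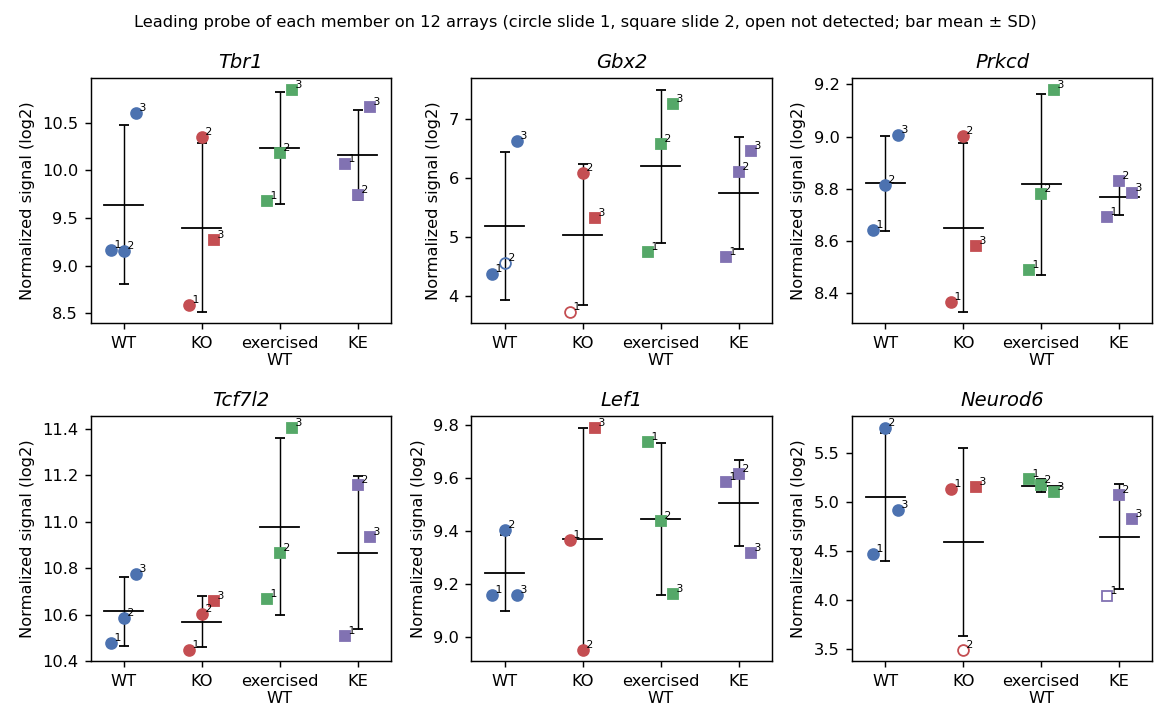
Normalized log2 signal of the leading probe of 6 members (vertical axes) in WT, KO, exercised WT and KE (horizontal axes), with 1 point per array numbered by replicate, circles for slide 1, squares for slide 2, open symbols where the spot was not well above background, and bars for mean ± SD of 3 arrays. Tbr1 runs from 8.58 to 10.85 and Gbx2 from 3.72 to 7.26, with the spread inside groups as wide as that between them.

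Emx1, below background throughout, had values between 1.84 and 3.93, which are bounds and carry no order. The probes of one gene did not always move together. For Prkcd the 3 probes correlated at r = 0.76 to 0.94 over 12 arrays, and the other 2 had ranges of 0.39 and 0.59 units. For Tcf7l2 the 3 probes toward the gene's end correlated at 0.58 to 0.78 over the 12 arrays. The fourth, at chr19:55817272-55817331 and designed on another transcript variant, correlated with them at -0.60, -0.00020 and 0.0037. These correlations are descriptions over arrays that share their slides. That probe was lowest on WT replicate 3 (4.84) and highest on KO replicate 3 (6.29).

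To set this spread against the array as a whole, the residual SD of each tested probe was taken from the fit of 4 group means, and no test was made of it. The median over all 35229 tested probes was 0.137 log2 units, and all 11 member probes lay above it. Gbx2 had a residual SD of 1.18, larger than that of 99.8% of tested probes. Tbr1 had 0.72, above 98.6% of them, and Neurod6 0.64, above 98.0%. Lef1 (0.28), Tcf7l2 (0.27) and Prkcd (0.26) exceeded 82.2%, 81.1% and 79.2%. Because spread can depend on level, each was also set against the probes whose mean lay within 0.5 units of its own. At its leading probe Tbr1 then exceeded 99.6%, Gbx2 99.7%, Tcf7l2 94.3%, Neurod6 93.8%, Lef1 93.3% and Prkcd 89.7% of them. The other Prkcd probes exceeded 46.6% and 42.3% of the probes of their level, so they varied no more than usual there. The other Tcf7l2 probes exceeded 64.8%, 88.6% and 73.7%. The range between the highest and the lowest array had a median of 1.61 units over the 6 leading probes and 0.520 over all tested probes, and 3.57% of tested probes had a range over 2 units. With normexp background correction of the scanner signals, the range fell to 1.60 units for Gbx2 and 0.763 for Neurod6, so for these dim probes its size depended on how background was removed. Without exercised WT replicate 3 the ranges were 2.08 units for Tbr1 and 2.91 for Gbx2.

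**Figure D2:**
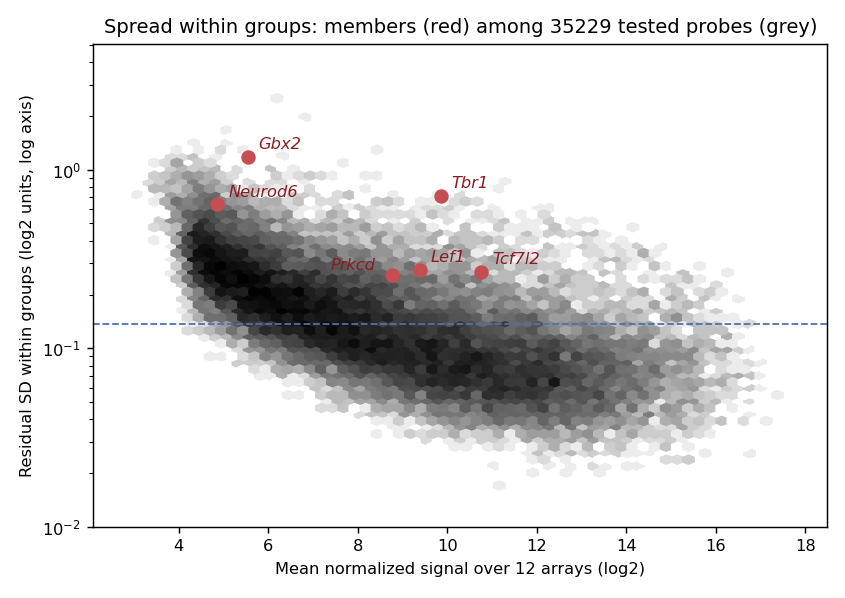
Residual SD within groups in log2 units (vertical, log axis) against mean normalized log2 signal over 12 arrays (horizontal) for 35229 tested probes in grey, darker where denser, with the leading probes of 6 members in red and the median of 0.137 as a dashed line. Gbx2 (1.18) and Tbr1 (0.72) lie at the upper edge of probes of their level.

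The comparison of KO with WT asks whether these markers differed with the loss of Asmt at rest. At the study's screening criterion, which takes 2-fold or larger changes whose p does not exceed 0.05 before adjustment, 0 of 11 member probes passed, against 0.224% of all tested probes. The groups overlapped for all 11, whereas they did not for 8.58% of tested probes. The Tbr1 difference was -0.24 ± 0.53 log2 units and that of Gbx2 -0.15 ± 0.87 (SE from limma). Neurod6 differed by -0.46 ± 0.47, Prkcd by -0.17 ± 0.19, Tcf7l2 by -0.04 ± 0.20 and Lef1 by 0.13 ± 0.21. The smallest unadjusted p, 0.056, belonged to the Tcf7l2 probe of the other variant, with a difference of 0.51 ± 0.23 and a limma adjusted p of 0.849. With the slide as a block that difference was 0.21, with an unadjusted limma p of 0.228. Within slide 1 the difference between the 2 KO arrays and the 3 WT arrays was -0.18 for Tbr1 and -0.29 for Gbx2.

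KE against KO asks about swimming in knockout mice. Here too 0 of 11 member probes passed, against 1.21% of tested probes, and 0 of 11 had groups that did not overlap, against 21.5%. Tbr1 was 0.76 ± 0.53 and Gbx2 0.70 ± 0.87 units higher in KE on average, neither beyond the spread between arrays. Tbr1 passed the criterion without KO replicate 2, at 1.23 units with an unadjusted limma p of 0.039. Tcf7l2 differed by 0.30 ± 0.20. With the slide as a block, the Tcf7l2 probe of the other variant was -0.76 units in KE with an unadjusted p of 0.0051 and a limma adjusted p of 0.328, a difference of less than 2-fold.

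Exercised WT against WT gives the same question for wild-type mice, and its groups lay on different slides, so that swimming and slide cannot be told apart except through the knockout arrays. The count was 0 of 11, against 2.19% of tested probes. The largest mean difference of the members was that of Gbx2, 1.01 ± 0.87 units with an unadjusted limma p of 0.273. Tbr1 differed by 0.59 ± 0.53 and Tcf7l2 by 0.36 ± 0.20 units. Prkcd differed by -0.0040 ± 0.19 units. The Tcf7l2 probe of the other variant was the member probe whose groups did not overlap here, at 0.35 ± 0.23 units, which is 1 of 11 beside 37.6% of all tested probes. With the slide as a block its difference was -0.54 units, an estimate that runs through the knockout arrays.

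KE against exercised WT compares genotypes after swimming within slide 2. Again 0 of 11 passed, against 0.253% of tested probes. The 11 differences ran from -0.52 to 0.06 and 10 were below 0, beside a median of -0.01 over all tested probes. Several of these probes belong to the same gene and all share the same arrays, so the 11 are not independent. Neurod6 had the lowest, -0.52 ± 0.47. The sign depended on exercised WT replicate 3 for most leading probes. Without that array Tbr1 (0.23), Prkcd (0.13), Tcf7l2 (0.10) and Gbx2 (0.08) were above 0, and Neurod6 (-0.55) and Lef1 (-0.08) below. In this comparison Neurod6 was the member whose groups did not overlap, with an unadjusted limma p of 0.294, which is 1 of 11 probes beside 19.5% of all tested probes. For the interaction, which asks whether swimming differed in effect between genotypes, the count was 0 of 11 against 0.593% of tested probes, and the estimates ran from -0.52 to 0.16 units.

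In the model of 4 group means, no member probe reached an unadjusted or adjusted limma p under 0.05 in any of the 5 comparisons. Over all tested probes the adjusted count was 0 in KO versus WT, exercised WT versus WT, KE versus exercised WT and the interaction, or 0% of probes, and 7 in KE versus KO, or 0.0199%. The comparisons share groups, so their values are not independent. The median difference of the 11 member probes was -0.10, 0.06, 0.20, -0.09 and -0.06 units in the 5 comparisons as ordered above, beside -0.01, -0.04, -0.04, -0.01 and -0.01 over all tested probes.

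**Figure D3:**
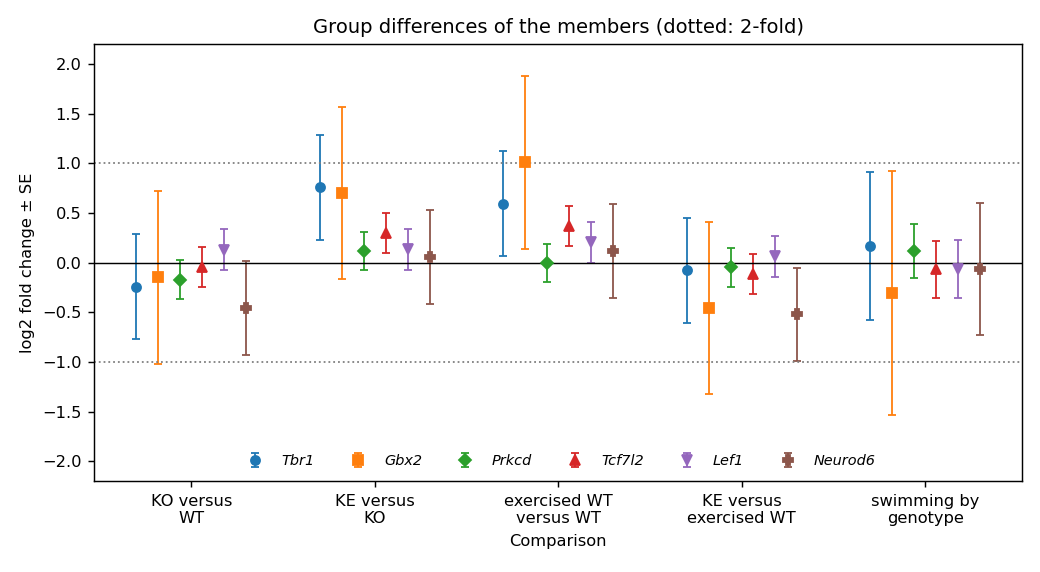
Log2 fold change with its SE from limma (vertical) for the leading probes of 6 members in the 5 comparisons (horizontal), with dotted lines at a 2-fold change. Gbx2 in exercised WT versus WT, at 1.01 ± 0.87, is the farthest from 0.

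The members were then compared with each other over the 12 arrays, as 15 pairs of the 6 tested genes, with permutation p-values adjusted by Benjamini-Hochberg over the 15. Tbr1 and Gbx2 rose and fell together, with r = 0.88 (permutation p = 0.0004, adjusted 0.00495) and Spearman's rho of 0.89 (permutation p = 0.00029, adjusted 0.00217). Without KO replicate 1 and exercised WT replicate 3, the arrays farthest from the median of Tbr1, r was 0.78, with an adjusted permutation p of 0.105. Over the 10 arrays that detected Gbx2, a choice made after the values were seen, r was 0.80 with an adjusted permutation p of 0.029. Gbx2 also went with Prkcd (r = 0.82, permutation p = 0.00103, adjusted 0.00515, rho 0.73 with permutation p = 0.00895) and with Tcf7l2 (r = 0.82, permutation p = 0.00066, adjusted 0.00495, rho 0.90 with permutation p = 0.00022). Without KO replicate 1 and exercised WT replicate 3, r was 0.64 with Prkcd (adjusted permutation p = 0.258). For Tcf7l2 the farthest arrays were KE replicate 2 and exercised WT replicate 3, and r without them was 0.87. Tbr1 and Prkcd reached r = 0.79 (permutation p = 0.00256, adjusted 0.0096, rho 0.71 with permutation p = 0.0115), and 0.58 without the 2 farthest arrays (adjusted permutation p = 0.303). When KO replicate 1 and exercised WT replicate 3 were left out for every pair, a choice made after the values were seen, r of Gbx2 and Tcf7l2 was 0.71 and none of the 15 pairs passed. The r of the 4 pairs then lay between 0.58 and 0.78, and the lowest adjusted permutation p of any pair was 0.0911, over 10 arrays. For Tbr1 and Prkcd, leaving out KO replicate 1 alone gave r = 0.69 with an adjusted permutation p of 0.0535.

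The slides were then looked at separately. On the 7 arrays of slide 2, r was 0.70 for Tbr1 and Gbx2 (exact permutation p = 0.0875, adjusted 0.146), 0.85 for Gbx2 and Prkcd (adjusted exact p = 0.0327), 0.88 for Gbx2 and Tcf7l2 (adjusted exact p = 0.0327) and 0.77 for Tbr1 and Prkcd (adjusted exact p = 0.0782). The relation of Tbr1 with Gbx2 or Prkcd therefore did not pass within this slide, and 7 arrays are too few to show it absent. On the 5 arrays of slide 1 no correlation was computed. There Tbr1 and Gbx2 were both lowest on KO replicate 1 and highest on WT replicate 3, followed by KO replicate 2. Residuals of the fit with group and slide gave 0.88 for Tbr1 and Gbx2 and 0.84 for Tbr1 and Prkcd. They gave 0.89 for Gbx2 and Prkcd and 0.77 for Gbx2 and Tcf7l2.

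Lef1, a thalamic marker by its list, passed with none of the other members over the 12 arrays, and ran against Tbr1 and Prkcd on slide 2. Its r over the 12 arrays was -0.59 with Prkcd (adjusted permutation p = 0.0915) and -0.38 with Tbr1 (adjusted permutation p = 0.375). With Gbx2 it was -0.32 (adjusted permutation p = 0.457) and with Tcf7l2 -0.06 (adjusted permutation p = 0.868). On slide 2 alone it was -0.97 with Tbr1 (exact permutation p = 0.000397, adjusted 0.00595) and -0.87 with Prkcd (adjusted exact p = 0.0327). There it was also -0.83 with Gbx2 (adjusted exact p = 0.06) and -0.71 with Tcf7l2 (adjusted exact p = 0.145). In the residuals of the fit with group and slide it was -0.82 with Tbr1, -0.79 with Prkcd, -0.79 with Gbx2 and -0.58 with Tcf7l2. Neurod6 passed with none of the other members: with Tbr1, the other tested cortical marker, r was -0.31 (permutation p = 0.335, adjusted 0.457). Over the 12 arrays the r of Tbr1 with the thalamic Gbx2 and Prkcd passed and that with the cortical Neurod6 did not, and the difference between these values was not tested. Tbr1 and the thalamic Tcf7l2 had r = 0.63 (adjusted permutation p = 0.0646) and rho = 0.73 (adjusted permutation p = 0.0336). Tcf7l2 and Prkcd had r = 0.65 (adjusted permutation p = 0.0646), and 0.88 on slide 2 (adjusted exact p = 0.0327). Without KO replicate 1 and exercised WT replicate 3, these 2 pairs had r of 0.38 and 0.26.

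Because Tbr1 and Gbx2 moved together, the 250 bases before their transcription starts were read from the RefSeq promoter table of build GRCm38.p6, which held all 7 members. The windows are chr2:61804203-61804452 on the plus strand for Tbr1 and chr1:89931177-89931426 on the minus strand for Gbx2. Capitals mark matches, on either strand, to the TCF/LEF letters CTTTGAA or CTTTGTT, to the T-box letters TCACACC and to the homeobox core TAATTA, which do not overlap each other here.
Tbr1: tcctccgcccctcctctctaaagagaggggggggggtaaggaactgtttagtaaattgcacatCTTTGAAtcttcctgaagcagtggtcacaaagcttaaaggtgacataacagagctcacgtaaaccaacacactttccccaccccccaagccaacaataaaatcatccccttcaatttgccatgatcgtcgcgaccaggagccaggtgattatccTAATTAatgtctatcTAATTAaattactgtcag
Gbx2: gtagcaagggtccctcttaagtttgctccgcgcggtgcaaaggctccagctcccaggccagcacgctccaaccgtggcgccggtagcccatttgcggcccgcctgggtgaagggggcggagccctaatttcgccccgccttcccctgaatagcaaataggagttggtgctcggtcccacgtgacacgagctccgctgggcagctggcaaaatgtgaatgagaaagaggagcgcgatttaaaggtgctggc
The Tbr1 window held 1 TCF/LEF match and 2 homeobox cores, the latter beginning 33 and 18 bases before the start. The Gbx2 window held 0 matches to any of the 3. Of 32851 promoters of this length, 9.17% held a TCF/LEF match, 3.33% a T-box match and 4.84% a homeobox core. A match is a run of letters and not a measured binding site.

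The genes most like each member were taken over the 12 arrays from the residuals of a fit with group and slide, among the more variable tested probes that carried a symbol, which gave 10989 genes. For Tbr1, Samd3 and Serpinf1 ranked 2 and 3, with r of 0.98 each. For Gbx2 they were 9330158H04Rik, 2610028E06Rik and Tbc1d8, with r of 0.97 each. For Prkcd they were 4833417C18Rik (0.99), Sp9, a transcription factor of developing forebrain interneurons (0.98), and Trpc5 (0.97). Tcf7l2 went most with Zfp804a (0.97), Ptpn3 (0.95) and Ndst1 (0.95), Lef1 with Tm7sf2 (0.98), Snrnp48 (0.96) and 8030453O22Rik (0.96), and Neurod6 with Ppt1 (0.95), Fitm2 (0.94) and Rbfox3 (0.93). These are the highest of many values and are given as a description.

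Just below the top 3 for Tbr1 stood genes of cholinergic neurons, so a list of 6 such genes was made after these values were seen and gets no test. Chat makes acetylcholine, Slc18a3 loads it into vesicles, Slc5a7 takes up choline, Ache breaks acetylcholine down, Lhx8 is a transcription factor of basal forebrain cholinergic neurons, and Ngfr is a neurotrophin receptor on them. Slc5a7 ranked 5, Chat 7, Slc18a3 9, Lhx8 10 and Ngfr 28 of 10989 genes in likeness to Tbr1, with r of 0.94 to 0.98. Against Gbx2, Lhx8 ranked 12 with r = 0.95, and Ngfr 66, Slc5a7 92, Slc18a3 118 and Chat 126 with r of 0.88 to 0.90. Against Prkcd the same genes ranked 184 to 362, with r of 0.79 to 0.84. Their r was 0.53 to 0.64 against Tcf7l2, -0.81 to -0.21 against Lef1 and -0.47 to 0.49 against Neurod6. Lhx8 itself read 7.71, 7.32 and 11.04 in WT, 7.00, 10.48 and 8.02 in KO, 8.43, 10.50 and 11.22 in exercised WT, and 8.71, 9.07 and 10.24 in KE, in the order of replicates 1 to 3. Its high arrays were WT replicate 3, KO replicate 2, exercised WT replicates 2 and 3 and KE replicate 3, and these were also the 5 highest for Tbr1. Ache varied by 0.25 units and took no part in this. Centred on each gene's mean, the list of 6 averaged -1.05 to 0.96 in WT, -0.93 to 0.67 in KO, -0.20 to 1.19 in exercised WT mice and -0.25 to 0.45 in KE, and all 6 genes were detected on all 12 arrays. The part of cholinergic neurons in the signal of Tbr1, Gbx2 or the other members was not tested.

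**Figure D4:**
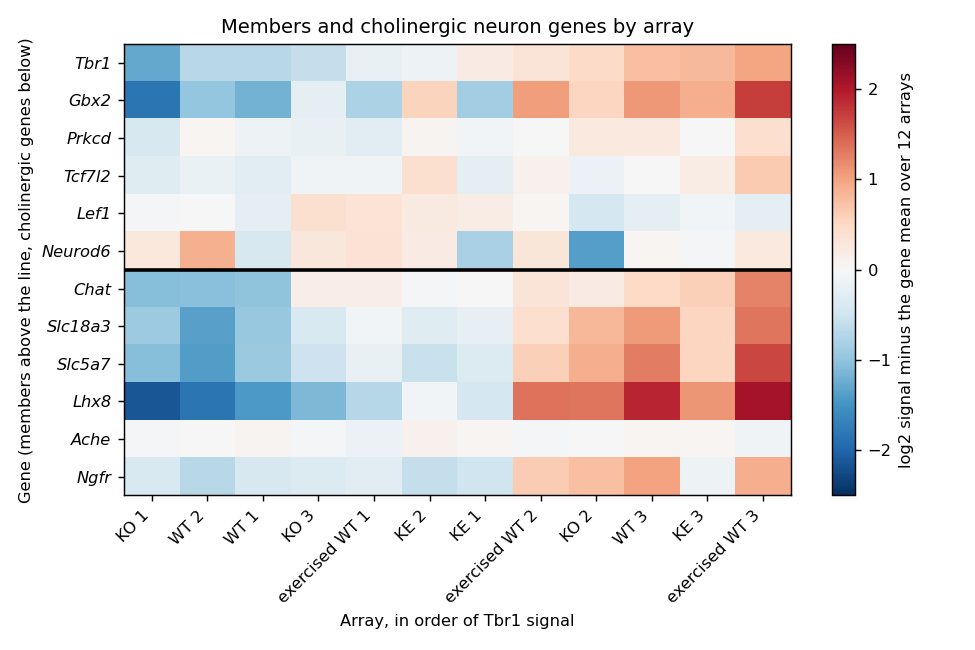
Log2 signal of 6 members and of 6 cholinergic genes (rows) minus the gene's mean over 12 arrays, in colour, with the arrays (columns) ordered by Tbr1. Lhx8 shares the red end of the Tbr1 order, from 7.00 on KO replicate 1 to 11.22 on exercised WT replicate 3, while Neurod6, Lef1 and Ache do not follow it.

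Other markers of the regions involved were counted for comparison, 94 genes in 9 lists, of which 85 had a tested probe. Of the 14 further cortical genes, 13 were tested and 0 passed the criterion in any comparison. Slc17a7, the vesicular glutamate transporter of cortical neurons, was detected on 3 of 12 arrays, with values from 1.82 to 5.09. Of 17 further thalamic genes, all were tested and 0 passed. The widest were Shox2, from 3.46 on KE replicate 1, where it was not well above background, to 7.43 on exercised WT replicate 3, and Tnnt1, from 8.01 to 9.24 on the same arrays. Of the 6 habenula genes, 3 were tested and 0 passed. The untested Chrna3 and Chrnb3, nicotinic receptor subunits, were detected on 2 and 3 arrays.

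Exercised WT replicate 3 had the highest average of the cortical, thalamic and striatal lists. The tested cortical list, each gene centred on its mean, averaged 0.25 there, the highest of the 12 arrays, with 4 of 13 genes highest on it. The thalamic list averaged 0.28, also the highest, with 6 of 17 genes highest on it. The habenula list (-0.06) and the choroid plexus list (0.03) were not highest there, whereas the anterior pituitary list, with 2 tested genes, was (0.1695). The striatal list averaged 0.67, against -0.20 to 0.21 on the other 11 arrays, and 8 of its 12 genes were highest on it. Among them Adora2a, the adenosine receptor of striatal neurons, reached 8.07. The hypothalamic list had its lowest average there, -0.21, with 10 of 18 genes lowest on that array. WT replicate 3 came next for the striatal (0.21), cortical (0.12) and hypothalamic (-0.15) lists, but averaged -0.01 for the thalamic list. All 18 hypothalamic genes were tested and 17 were detected on all 12 arrays, so the defining markers of the labelled tissue were present. Tbr1, Gbx2, Prkcd and Tcf7l2 were all highest on this array.

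**Figure D5:**
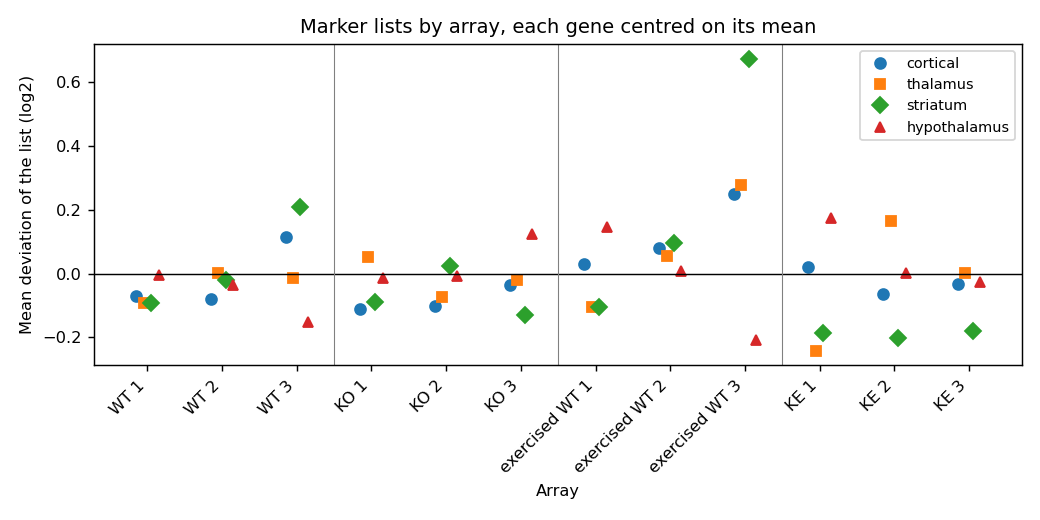
Mean deviation of 4 marker lists in log2 units (vertical; each tested gene centred on its mean over 12 arrays) on each array (horizontal, groups divided by lines). Exercised WT replicate 3 is highest for the striatal (0.67), thalamic (0.28) and cortical (0.25) lists and lowest for the hypothalamic list (-0.21).

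Lists of cells that share a member were also read. The oligodendrocyte list, 8 genes that could carry Tcf7l2, was lowest on KO replicate 2 (-0.21) and highest on KE replicate 3 (0.33), with 0 of 8 past the criterion, and its widest genes were Enpp6 (1.06 units) and Mag (0.75). The leading Tcf7l2 probe had its ends on other arrays. The endothelial list, 6 genes beside Lef1, was lowest on KO replicate 2 (-0.34) and highest on KO replicate 3 (0.21). Axin2 alone set the highest array, since the other 5 genes averaged 0.0016 on KO replicate 3 and were highest on WT replicate 2 (0.11) and lowest on KO replicate 2 (-0.10). Within it Axin2, a target and inhibitor of WNT signalling, passed in KE versus KO by 1.35 ± 0.58 units and in exercised WT versus WT by 2.09 ± 0.58 units, with limma adjusted p-values of 0.221 and 0.095. Axin2 lay between 5.24 and 5.74 on slide 1 and between 7.35 and 8.10 on slide 2, and with the slide as a block its differences were -0.38 and -0.52. Lef1 lay between 8.95 and 9.40 on slide 1 and between 9.16 and 9.79 on slide 2. Apcdd1, another WNT inhibitor of the endothelial list, ranged by 0.88 units. The part of these cells in the Tcf7l2 and Lef1 values was not tested.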

How the data were processed

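Hypothalamus RNA of 12 samples, 3 per group, was measured on Agilent arrays with a single dye. The authors extracted spot intensity with Feature Extraction 10.7.1.1 and deposited that scanner output, with the software's quality flags, together with a table of log2 values that the authors had normalized between arrays by the quantile method in GeneSpring, beside raw intensity and a detection flag per array. The normalized log2 values were used here. Raw intensity matched the scanner output within 0.01 log2 units for 56580 to 56604 of 56605 probes per array. The deposited comparison lists hold the authors' own fold changes and p-values and 72 further columns of values and flags per sample, and were not used. Probes detected on all 3 arrays of a group were tested with limma 3.58.1 in R 4.3.3, as a model of 4 group means over 12 arrays with Benjamini-Hochberg adjustment, and the screening criterion of the methods (2-fold or more with p up to 0.05) was counted beside it. On simulated data with 200 changed probes among 35229, 190 of these were called after adjustment in KO versus WT (182 with the slide as a block) and 189 in KE versus exercised WT. The planted changes were all larger than 2-fold and the noise was drawn independently for each probe and array. This checks the code and does not give the power for the members.

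Correlations used Python 3.11.15 with 100000 permutations, or all 5040 pairings of the 7 arrays of slide 2. With no tested Emx1 probe, 15 pairs were formed. The genes named are the members, list genes past the criterion at their brightest tested probe, the 2 genes of each list with the widest range, and the 3 genes most like each member. Others were named after their values were seen, as said in the text for the cholinergic genes, and some genes that these rules pick are not reported here. Slc17a7, Chrna3, Chrnb3, Slc4a5, Cga and Prl had no tested probe. The members and lists were chosen with earlier results of these data known. Alternatives were quantile normalization of the scanner output, scaling by the 75th percentile, normexp with an offset of 50, no detection filter, detection on all arrays, the methods' t-test, only the groups compared, slide or replicate number as a block, probes averaged per gene, and each array left out in turn. Promoters came from RefSeq, build GRCm38.p6, and probe positions from the array annotation, build mm9.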

Additional observations from a re-analysis of the deposited data

How the results depend on the processing

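Of 216 counts of member probes under 22 alternatives, 214 equalled the reported 0. KE versus KO had 1 probe past the criterion with no detection filter, the second Tbr1 probe, which was detected on 0 arrays, and 0 to 1 when each array was left out in turn, the 1 being Tbr1 without KO replicate 2. The other counts of member probes past the criterion or with an adjusted p stayed at 0 when each of the 12 arrays was left out. The all-probe counts past the criterion moved more, between 2 and 487 for KO versus WT (79 reported), 57 and 1187 for KE versus KO (426), 222 and 1524 for exercised WT versus WT (770), 5 and 808 for KE versus exercised WT (89) and 12 and 955 for the interaction (209). Without KO replicate 3, the KO array on slide 2, 8578 probes in KE versus KO had a limma adjusted p under 0.05, and for exercised WT versus WT the number was 6352, none of them a member probe. With only the groups compared, 2958 probes passed for exercised WT versus WT, and 1637 by the methods' t-test after adjustment, also with 0 member probes. The adjusted all-probe counts otherwise lay between 0 and 19. The median range of the members, 1.61 units, was 0.866 with normexp background correction and 1.04 within slide 2, and 1.31 to 1.61 when 1 array was left out. Single members moved too. The range was 0.327 units for Tcf7l2 and 0.453 for Lef1 within slide 1, and 1.19 for Neurod6 within slide 2. With probes averaged per gene it was 0.597 for Tcf7l2 and 0.523 for Prkcd. The correlation of Tbr1 and Gbx2, 0.88, was 0.70 within slide 2 and 0.78 without the 2 farthest arrays, with adjusted p no longer under 0.05 (0.146 and 0.105, by permutation, and 0.0911 when those 2 arrays were left out for every pair, which was chosen after the data were seen), and 0.83 to 0.93 when 1 array was left out. The settings within a slide or without arrays use fewer arrays, and the cause of the other changes was not tested.

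The correlation of deviations of same-numbered replicates ran from -0.19 to 0.24 with a median of 0.0039 over 18 pairs, of which 4 exceeded 0.1. For the 36 pairs with other numbers the median was -0.028, and 4 exceeded 0.1. The numbers are those of the sample titles, which differ in part from the authors' own sample names. Pairing by those names was not examined. With the replicate block, 0 member probes passed the criterion and 0 had an adjusted p under 0.05, and the smallest unadjusted limma p of a leading probe was 0.033, for Tcf7l2 in exercised WT versus WT at 0.36 units. Of 638 fold changes of leading probes under alternatives, 59 had the other sign from the reported one, none of them called. Signal over background limits Emx1, Gbx2 and Neurod6, whose dim values depend on background handling.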

Other observations

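Of the striatal, hypothalamic and choroid plexus lists, 1 gene each passed the screening criterion, and none had an adjusted p under 0.05 in limma. The striatal gene was 1 of 12 tested, in KE versus exercised WT, where 0.253% of all tested probes passed. The others were 1 of 18 hypothalamic and 1 of 6 choroid plexus genes tested, in exercised WT versus WT, where 2.19% of all tested probes passed. Adora2a differed by -1.33 ± 0.51 log2 units in KE versus exercised WT with a limma adjusted p-value of 0.714, and its highest array was exercised WT replicate 3. Sim1, a transcription factor of the paraventricular nucleus, differed by 2.01 ± 0.70 in exercised WT versus WT with a limma adjusted p-value of 0.123, but by -1.10 with the slide as a block, and lay between 4.10 and 5.08 on slide 1 and between 6.21 and 7.23 on slide 2. The Sim1 probe was detected on 2 of 3 WT arrays and 9 of 12 in all, so its lower values are bounds. Aqp1, a water channel of the choroid plexus, differed by 1.01 ± 0.43 in exercised WT versus WT with a limma adjusted p-value of 0.173 and by 0.39 with the slide as a block, and was detected on 2 of 3 WT arrays. Crh, the corticotropin-releasing hormone, ranged over 1.98 units, from KO replicate 1 to WT replicate 3.

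Some genes of other neighbours had wider ranges than any member. Ttr, the transthyretin of the choroid plexus, ran from 5.53 on KO replicate 1 to 10.79 on exercised WT replicate 2, and Slc4a5 was detected on 1 array. Cga, the common subunit of pituitary glycoprotein hormones, was detected on 5 arrays and ran from 1.85 on KE replicate 2 to 11.51 on KO replicate 1. Prl, the pituitary hormone prolactin, was detected on 3 arrays. The pituitary list had 2 of 6 genes tested, with 0 past the criterion.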
